A study of Mus musculus with 24 samples.

Results

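Gene expression in the dorsal root was compared with that in the ventral root of newborn mice. The dorsal root carries the afferent nerve fibres (AN) of sensory neurons, and the ventral root carries the efferent nerve fibres (EN) of motor neurons. The arrays were those labelled stage P0, namely 3 AN arrays and 3 EN arrays, which are 6 of the 24 arrays of the series. The remaining 18 arrays hold the same 2 roots at the ages of 1, 3 and 5 weeks (1 W, 3 W, 5 W) and were used only to follow the P0 differences. All animals were C57BL/6 mice without a transgene or a treatment on the labels, and the roots belonged to segments L4-L6. The methods describe 9 animals per stage, fibres collected into 8 tubes by stage and root, and 3 independent experiments per group. How animals were divided over the 3 arrays of a group is not given, so the p values below measure the spread between arrays. Replicates 1 to 3 are numbered in both roots. The AN and EN arrays of replicate 1 shared 1 slide, and those of replicates 2 and 3 shared another, so that each slide held both roots.

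A spinal root is mostly axons and Schwann cells, wrapped in connective tissue with blood vessels, while the neuronal cell bodies lie in the spinal cord and in the dorsal root ganglion. Around birth, Schwann cells leave an immature, dividing state, sort axons, and turn on myelin proteins and the sterol pathway that supplies cholesterol to the myelin membrane. Boundary cap cells are neural crest derivatives that sit where each root meets the spinal cord, and they give rise to part of the Schwann cells of the roots. In such bulk tissue, fewer cells of a type and less RNA per cell cannot be told apart.

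Each array carried 56605 gene probes, of which 31105 were tested because all 3 AN arrays or all 3 EN arrays had them well above background, representing 20678 gene names. Values are log2 units of the quantile-normalized table, and a difference of 1 is a fold change of 2. Differences are AN minus EN, and the standard error (SE) of a difference is limma's moderated one, which combines the spread of the 3 pairs with that of all probes. On the P0 arrays between 55.1% and 71.3% of the gene spots were well above background, and no spot was saturated. The lowest value still above background lay between 3.76 and 5.87 on the 6 arrays. The median difference of all tested probes was 0.007.

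The study's methods set 2 thresholds, a p below 0.05 and a fold change above 2, and do not say whether p was adjusted. With the unadjusted p at these thresholds, 264 probes were called, which is 0.849% of the tested probes. They consisted of 61 probes higher in AN (0.196%) and 203 probes lower in AN (0.653%), with 49 and 168 gene names. Each of the 264 had the same sign in 3 of 3 pairs, and for 236 of them the AN and EN arrays did not overlap, against 14.1% of all tested probes. The calls came from these same arrays, so both counts follow in part from the selection and are no separate support. The differences were small, with a median fold change of 2.28 and 8 probes beyond 2 in log2 units. None passed a Benjamini-Hochberg adjusted p of 0.05 in the limma fit of the 6 arrays, where the smallest adjusted p was 0.0663 and 6317 probes (20.3%) had an unadjusted p below 0.05, 9.93% being higher and 10.4% lower in AN. Gene lists below read each gene through its brightest probe, and over the brightest probe of every gene name 9.98% were higher and 10.2% lower at this p, with 0.184% called higher and 0.677% called lower. When the spread was estimated over all 24 arrays in limma, 179 of the 264 had an adjusted p below 0.05. This second adjusted p is given below as the adjusted p over 24 arrays. All calls therefore rest on the unadjusted p, and 134 of the 264 were called whichever of the 3 pairs was left out.

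**Figure D1:**
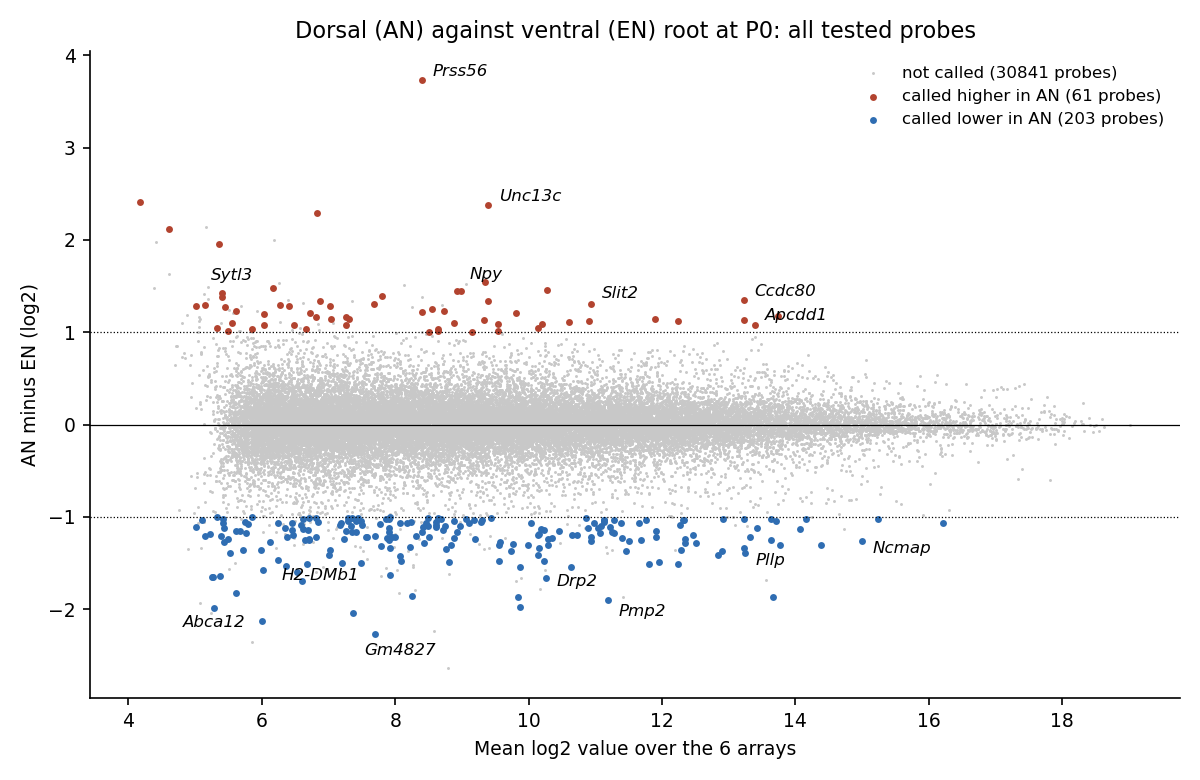
Difference between the roots (AN minus EN, log2, vertical axis) against the mean log2 value of the 6 P0 arrays (horizontal axis) for all 31105 tested probes. Red points are the 61 probes called higher in AN, blue points the 203 called lower, grey points the rest, and dotted lines mark a fold change of 2; Prss56 stands highest and most called probes lie below the zero line.

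The genes higher in the dorsal root were led by Prss56, which encodes a secreted serine protease and is a marker of boundary cap cells. Prss56 read 9.76, 10.97 and 10.07 on the AN arrays and 5.25, 6.56 and 7.81 on the EN arrays. The lowest AN array was about 2 log2 units above the highest EN array, and the EN arrays spread more widely than the AN arrays. The difference was 3.73 ± 0.51 (SE, n = 3 pairs, limma adjusted p = 0.0713, and 0.002466 over 24 arrays), and by pair it was 4.52, 4.41 and 2.26.

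The list of boundary cap markers had 8 genes, Prss56 among them. All 8 were tested and 2 were called higher, Prss56 and Hey2, beside 0.184% of all gene names. Hey2, a transcriptional repressor in the Notch pathway, read 7.49, 7.89 and 8.24 in AN against 6.68, 6.36 and 7.16 in EN. The difference was 1.14 ± 0.16 (limma adjusted p = 0.0724, and 0.2191 over 24 arrays). The EN arrays lay below every AN array. Npr3, a natriuretic peptide receptor, and Ntn5, a secreted netrin, were higher in AN by 0.64 ± 0.07 and 0.79 ± 0.11 without reaching a fold change of 2. Sema6a was higher by 0.26 and Egr2, which boundary cap cells and myelinating Schwann cells both express, was lower by 0.56. Wif1 and Cdh7 differed by 0.42 and 0.45 and did not pass p below 0.05. The median of the 8 was 0.54, beside 0.007 over all tested probes.

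Unc13c, which encodes a presynaptic protein that prepares synaptic vesicles for release, was also among the 3 largest rises. It read 10.34, 10.54 and 10.86 in AN and 8.19, 7.96 and 8.48 in EN. All AN arrays stood nearly 2 log2 units or more above all EN arrays, and the difference was 2.37 ± 0.11 (limma adjusted p = 0.0663, and 0.0007033 over 24 arrays). Its other probe was called as well, at 1.54. The probe lies at chr9:73331431-73331490 in mm9, the build named in the scanner files, and the minus strand is implied by the order of its ends.

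Slit2, a secreted guidance cue that repels growing axons through Robo receptors, read 11.52, 11.51 and 11.75 in AN and 10.41, 10.05 and 10.41 in EN. The groups did not overlap, and the spread within each group was below 0.4 log2 units. The difference was 1.30 ± 0.10 (limma adjusted p = 0.0663, and 0.0005841 over 24 arrays), with 1.43 on its other probe, and the probe lies at chr5:48696502-48696561 (mm9). Of the 6 tested Slit and Robo genes, Slit3 (0.72) and Robo4 (0.34) were also higher at p below 0.05, beside 9.98% of all gene names. Slit1, Robo1 and Robo2 lay between -0.10 and 0.19 and did not pass.

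Npy, the neuropeptide Y gene, read 10.21, 9.35 and 9.56 in AN and 8.49, 8.23 and 8.07 in EN, so that every AN array was above every EN array. The difference was 1.45 ± 0.14 (limma adjusted p = 0.0663, and 0.0769 over 24 arrays). Sytl3, a Rab27-binding protein of vesicle trafficking, was higher on each of its 3 probes, by 1.45, 1.46 and 1.48. Ccdc80, an extracellular matrix protein, and Apcdd1, a membrane inhibitor of Wnt signalling, were bright genes with tight groups. Ccdc80 read 13.73, 14.01 and 13.99 in AN against 12.61, 12.53 and 12.54 in EN, and Apcdd1 read 13.91, 13.98 and 13.92 against 12.87, 12.88 and 12.81.

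Among the other genes higher in AN were Duoxa1 (1.40), which matures a dual oxidase, Elovl2 (1.13), which elongates polyunsaturated fatty acids, the protocadherins Pcdh20 (1.22) and Pcdh10 (1.01), the guanine nucleotide exchange factor Arhgef16 (1.04) and Herc6 (1.04), an interferon-induced ligase family member. The other Duoxa1 probe differed by 0.40, and the 4 Pcdh10 probes ranged from 0.73 to 1.23. The limma adjusted p over 24 arrays was 0.0541 for Duoxa1, 0.0583 for Elovl2, 0.0919 for Pcdh10 and 0.1451 for Herc6. The clone names 9130015A21Rik and 4933439C10Rik differed by 2.30 and 2.41. No EN array was above background for 4933439C10Rik, for which AN was at least 1.23-fold higher. The same bound applied to 6 more called probes, of Mastl, Pcdh10, Ampd3, Pdzk1, Fads6 and Lemd1, where AN was at least 1.50- to 2.39-fold higher. Those 6 probes were looked up after their values were seen. Each bound holds for its probe and not for the gene. Other tested probes of Mastl, Ampd3, Fads6 and 4933439C10Rik differed by as little as 0.51, 0.24, 0.36 and 0.01.

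Receptor genes were also called higher in AN. Gfra3, the receptor subunit for the neurotrophic factor artemin, read 12.43, 12.84 and 12.16 in AN and 11.22, 11.47 and 11.30 in EN. The groups did not overlap and the difference was 1.14 ± 0.12, with an adjusted p over 24 arrays of 0.1484. Gabrb2, a subunit of the GABAA receptor, an inhibitory chloride channel, was higher by 1.1 ± 0.08, with an adjusted p over 24 arrays of 0.135. Its second probe differed by -0.08, so the 2 probes of that gene disagreed. Of the 13 tested GABAA receptor subunits, 3 passed p below 0.05 and all 3 were higher in AN, among them Gabrg3 (0.55), beside 9.98% of all gene names that were higher at this p.

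Of the adhesion genes, Ncam1, the neural cell adhesion molecule, read 14.34, 14.50 and 14.44 in AN against 13.65, 13.93 and 13.79 in EN. Its groups did not overlap, but at 0.64 ± 0.07 the difference did not reach a fold change of 2, and its 5 probes ranged from 0.27 to 0.64. Nlgn1, a postsynaptic neuroligin, was higher by 0.49 ± 0.11 (limma adjusted p = 0.132).

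**Figure D2:**
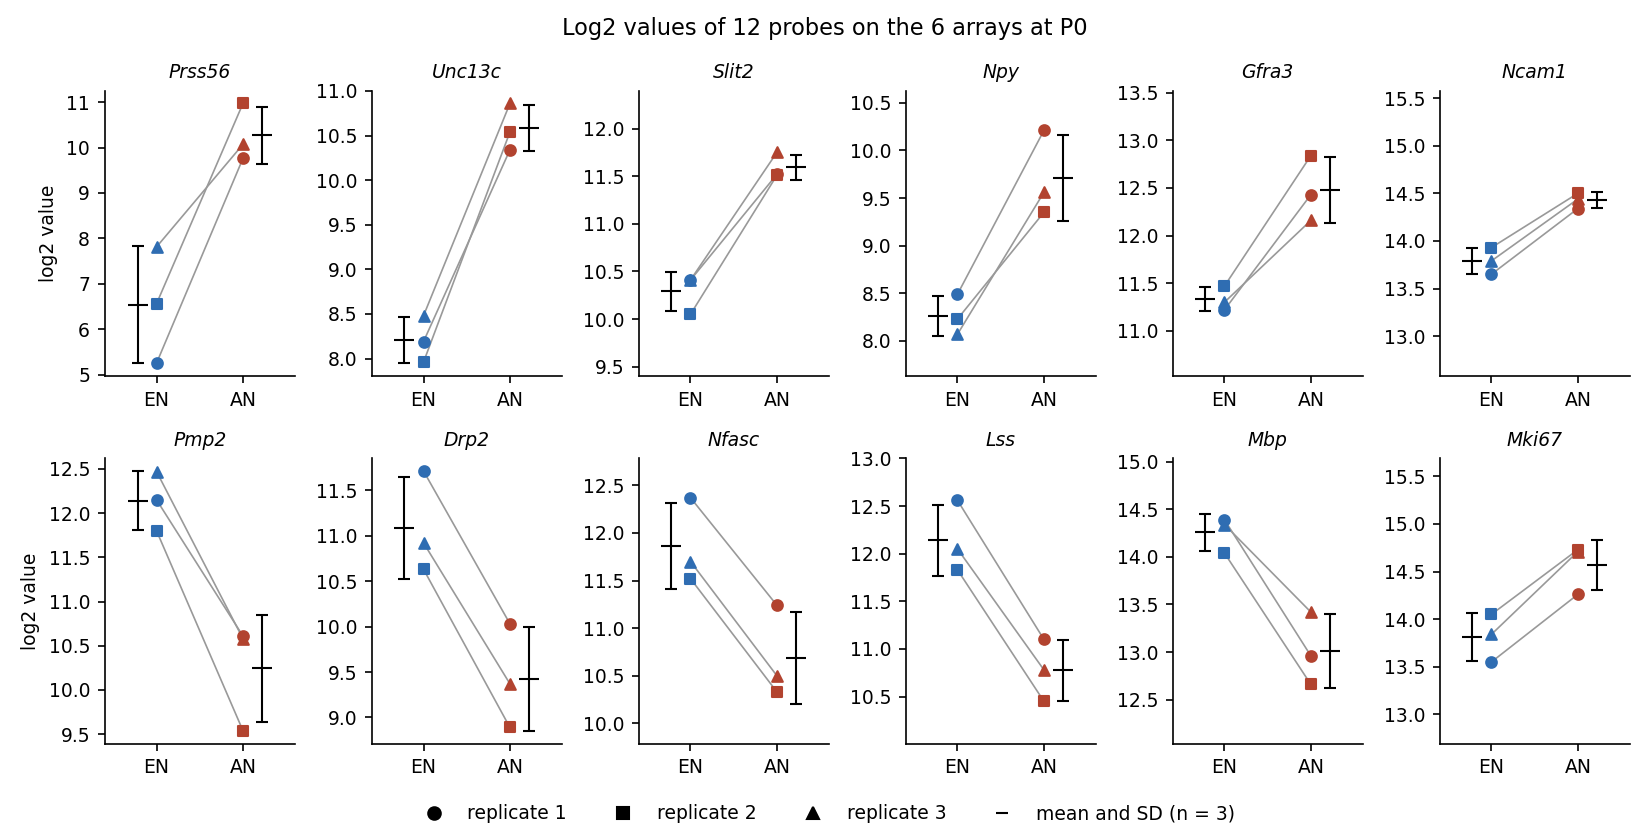
Log2 values (vertical axis) of 12 probes on the 6 P0 arrays, with grey lines joining the EN and AN arrays of the same replicate number and black marks for mean ± SD (n = 3). Prss56, Unc13c, Slit2, Npy, Gfra3 and Ncam1 are higher on every AN array and so is Mki67, while Pmp2, Drp2, Nfasc, Lss and Mbp are lower on every AN array than on any EN array.

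The genes lower in the dorsal root held much of the peripheral myelin programme. Of 20 listed genes of peripheral myelin, 9 were called lower in AN, beside 0.677% of all gene names, and 19 were lower at p below 0.05, beside 10.2%. None was higher. The differences had a median of -0.94, with Pmp2 (-1.89) the lowest, and the median by pair was -0.72, -1.30 and -0.81. For 16 of the 20 the groups did not overlap, beside 6.99% of all tested probes that were lower with no overlap.

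Pmp2, a fatty acid binding protein of the myelin sheath, read 10.61, 9.54 and 10.58 in AN and 12.15, 11.80 and 12.47 in EN. Every AN array was more than 1 log2 unit below every EN array, and replicate 2 was the lowest of both roots. The difference was -1.89 ± 0.16 (limma adjusted p = 0.0663, and 0.0006257 over 24 arrays). Drp2, which links periaxin to dystroglycan at the outer Schwann cell membrane, read 10.03, 8.89 and 9.37 in AN and 11.71, 10.63 and 10.92 in EN. Within each pair it was lower by 1.69, 1.74 and 1.55, so that the 3 pairs agreed more closely than the arrays of 1 root did.

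The other called members were Gldn (-1.51), a Schwann cell ligand that clusters sodium channels at nodes of Ranvier, Pllp (-1.39), a myelin membrane tetraspan protein, Ugt8a (-1.28) and Fa2h (-1.02), enzymes of the myelin galactolipids, Ncmap (-1.26), an adhesion protein of noncompact myelin, Mbp (-1.25), myelin basic protein, and Gjb1 (-1.24), connexin 32. AN replicate 2 was the lowest array for Pllp, at 11.63 beside 13.39 and 12.63 on the other AN arrays. Pmp22, Prx, Mag, Cnp, Mal and Gal3st1 were lower by 0.60, 0.37, 0.81, 0.46, 0.41 and 0.32 at p below 0.05 and did not reach a fold change of 2.

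Mbp read 12.96, 12.66 and 13.42 in AN and 14.39, 14.04 and 14.34 in EN on its brightest probe, with no overlap between the groups. Pmp22, a membrane protein of compact myelin, and Mbp were each read by probes that disagreed in size. The brighter Pmp22 probe, which ranked 46 among the 31105 tested probes by mean value, differed by -0.60 and the dimmer one by -1.30, and the 3 Mbp probes differed by -1.25, -1.41 and 0.07. Whether the brightest probes were compressed near the top of the signal range was not tested.

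Genes of the node of Ranvier and its flanks did not move as 1 group. Of 18 tested, 6 were lower and 3 higher at p below 0.05, beside 10.2% and 9.98% of all gene names. Besides Gldn, Nfasc was called, which encodes the neurofascins that anchor axon and glia at the node and paranode. Nfasc read 11.24, 10.33 and 10.50 in AN and 12.37, 11.52 and 11.70 in EN, and in the 3 pairs it was lower by 1.13, 1.19 and 1.20. Kcna1 and Kcna2, axonal potassium channels of the juxtaparanode, were lower by 0.74 and 0.69, Nrcam by 0.67, and the glial adhesion gene Cadm1 was higher by 0.73. The axonal genes Cntn1, Cntnap1, Cntnap2, Cntn2 and Scn8a lay between 0.15 and 0.37 and did not pass.

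The transcription factors that drive myelination differed less. Of 19 tested regulators of Schwann cell myelination none was called, and the median was 0.087. At p below 0.05, 3 were higher and 3 lower, beside 9.98% and 10.2% of all gene names. Egr2, the factor that switches on myelin genes, read 15.05, 14.41 and 14.70 in AN against 15.42, 15.26 and 15.17 in EN. The groups did not overlap, and the difference was -0.56 ± 0.12 (limma adjusted p = 0.118, and 0.0455 over 24 arrays). Pou3f1, which precedes Egr2, was lower by 0.38 and Srebf2, which activates sterol genes, by 0.30, while Egr3 was higher by 0.64. Sox10, the lineage factor of Schwann cells, differed by 0.09 ± 0.10, and its groups overlapped.

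Cholesterol is made from acetyl units in the mevalonate pathway, and its genes were lower in AN together. All 21 tested members of the sterol list were lower at p below 0.05, beside 10.2% of all gene names. Of the 21, 7 were called, beside 0.677%. Of these members 18 showed no overlap between the groups, beside 6.99% of all tested probes. The median was -0.84, and by pair it was -0.91, -0.81 and -0.80. The mean of the list was 12.68, 12.29 and 12.39 on the AN arrays and 13.50, 13.10 and 13.20 on the EN arrays.

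Lss, lanosterol synthase, which closes the sterol ring system, was called on all 3 of its probes. The probe with the largest change read 11.10, 10.45 and 10.78 in AN and 12.56, 11.83 and 12.05 in EN, a difference of -1.37 ± 0.08 (limma adjusted p = 0.0663, and 0.0006412 over 24 arrays). No AN array reached the lowest EN array. The other called members were Mvd (-1.12) and Idi1 (-1.04), enzymes of isoprenoid synthesis, Cyp51 (-1.03), Nsdhl (-1.03) and Tm7sf2 (-1.02), which process lanosterol, and Insig1 (-1.05), a sterol-regulated retention protein of the SREBP pathway. Sqle, which makes the epoxide that Lss closes, was lower by 0.44 and did not reach a fold change of 2.

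As the members of this list moved together, their upstream sequences were read from the RefSeq promoter table (GRCm38.p6), which held promoters for 15 of the 21 genes. Sterol genes are known to be switched on by SREBP2 together with the factor NF-Y, which binds the letters CCAAT. The 250 bases before the start of 4 called genes are shown 5′ to 3′ in the direction of the gene, with CCAAT or its reverse complement ATTGG in capitals. They belong to Lss (chr10:76531355-76531604, plus strand), Mvd (chr8:122443423-122443672, minus strand), Idi1 (chr13:8885356-8885605, plus strand) and Cyp51 (chr5:4104698-4104947, minus strand).
Lss: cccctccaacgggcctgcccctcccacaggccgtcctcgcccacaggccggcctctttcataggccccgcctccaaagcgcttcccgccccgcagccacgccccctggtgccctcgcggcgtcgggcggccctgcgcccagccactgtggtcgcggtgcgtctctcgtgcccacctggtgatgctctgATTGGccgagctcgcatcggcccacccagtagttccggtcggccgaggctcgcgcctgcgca
Mvd: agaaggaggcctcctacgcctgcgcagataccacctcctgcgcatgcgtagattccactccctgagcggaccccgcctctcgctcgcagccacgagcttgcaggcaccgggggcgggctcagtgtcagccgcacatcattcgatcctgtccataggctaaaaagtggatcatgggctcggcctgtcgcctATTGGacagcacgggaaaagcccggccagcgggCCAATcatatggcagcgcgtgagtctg
Idi1: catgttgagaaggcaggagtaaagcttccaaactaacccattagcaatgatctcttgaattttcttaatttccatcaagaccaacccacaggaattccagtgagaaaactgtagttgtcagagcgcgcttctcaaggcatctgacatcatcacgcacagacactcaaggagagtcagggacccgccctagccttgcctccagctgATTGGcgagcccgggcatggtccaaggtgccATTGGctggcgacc
Cyp51: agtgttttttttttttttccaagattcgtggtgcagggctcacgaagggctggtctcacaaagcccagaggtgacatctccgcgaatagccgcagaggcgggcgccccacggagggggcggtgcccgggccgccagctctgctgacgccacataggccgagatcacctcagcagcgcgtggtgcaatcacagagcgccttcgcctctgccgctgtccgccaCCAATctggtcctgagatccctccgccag

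The letters CCAAT or ATTGG occurred in 15 of 18 sterol promoters (83.3%) and in 11120 of the 32851 promoters of the table (33.9%). For comparison, they occurred in 11 of 26 promoters of peripheral myelin genes (42.3%) and in 16 of 18 promoters of the cell cycle genes described next (88.9%), which moved in the opposite direction. In Mvd the matches lie 60 and 27 bases before the start, in Lss 62, in Idi1 45 and 14, and in Cyp51 29. A match describes the letters in this window and is not evidence of a bound site.

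Genes of cell division were higher in AN. All 20 listed cell cycle genes were tested and were higher at p below 0.05, beside 9.98% of all gene names. None reached a fold change of 2. The AN and EN arrays did not overlap for any of the 20, beside 7.14% of all tested probes that were higher with no overlap. The differences ran from 0.37 (Ccne1) to 0.89 (Kif11) with a median of 0.67. Mki67, the proliferation marker, read 14.26, 14.73 and 14.71 in AN and 13.55, 14.05 and 13.84 in EN, a difference of 0.76 ± 0.08 (limma adjusted p = 0.0663, and 0.0223 over 24 arrays). Each AN array was above each EN array and also above its own partner. Top2a, which untangles DNA, was higher by 0.80, the mitotic kinases Cdk1, Aurkb and Plk1 by 0.82, 0.88 and 0.78, and Mcm2 to Mcm7 of the replicative helicase by 0.48 to 0.72. With the spread over 24 arrays, 17 of the 20 had an adjusted p below 0.05.

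Markers of immature Schwann cells leaned the same way, less uniformly. Of 18 tested, 10 were higher and 1 lower at p below 0.05, beside 9.98% and 10.2% of all gene names. The median of the list was 0.35. Hey2 was the only called member, beside 0.184% of all gene names called higher. Pax3 and Tfap2a, transcription factors of the neural crest and of Schwann cell precursors, were higher by 0.98 ± 0.08 and 0.93 ± 0.08, Fabp7 and Gfap by 0.81 each, Cdh2 by 0.59 and Sox2 by 0.40. Jun, Id2, Notch1 and Ngfr lay between 0.01 and 0.30 and did not pass, and Dhh, the hedgehog ligand of the Schwann cell lineage, was lower by 0.40.

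**Figure D3:**
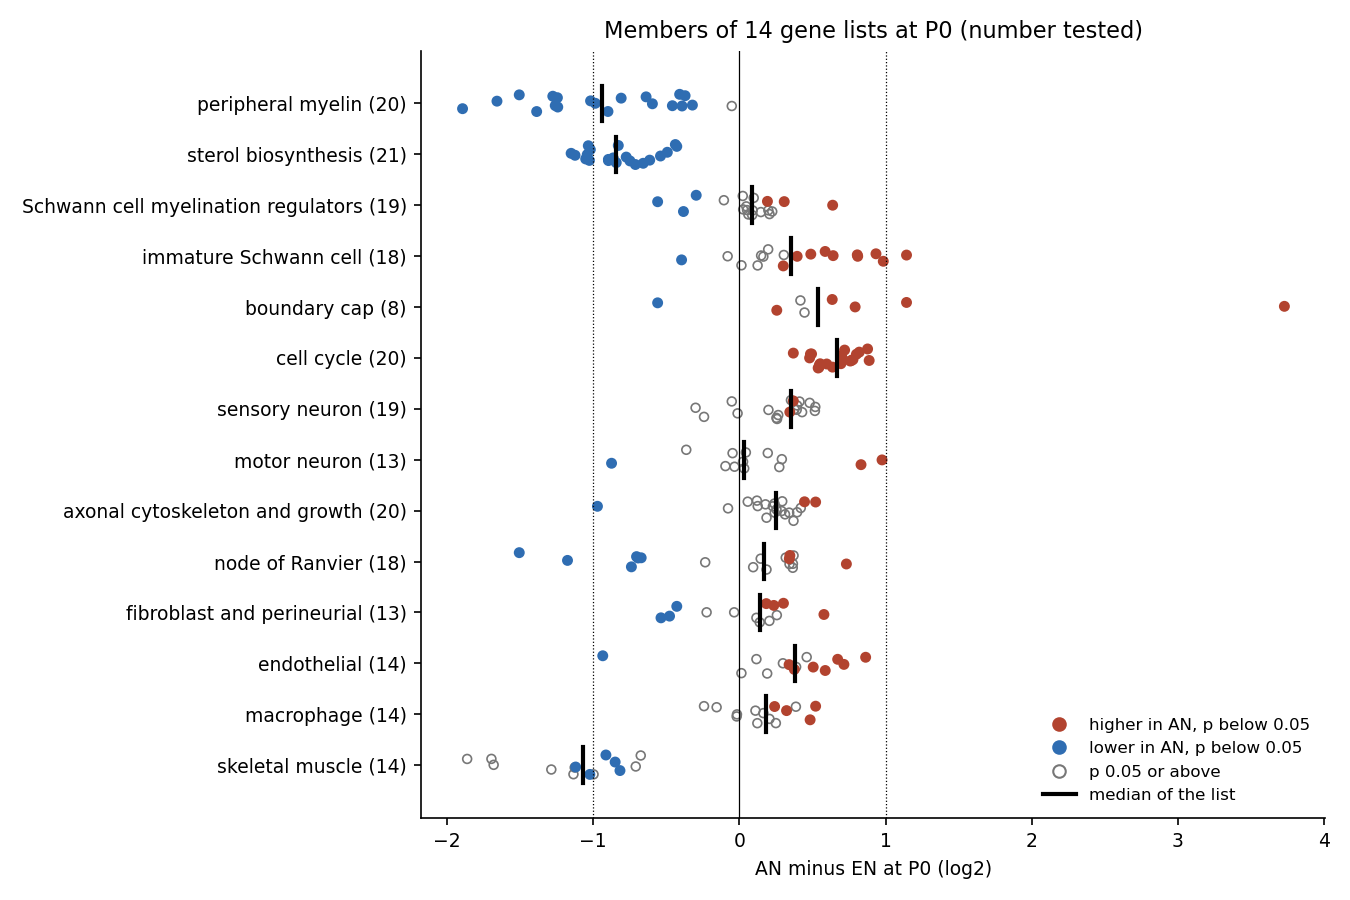
AN minus EN at P0 (log2, horizontal axis) of each tested member of 14 gene lists, with the number tested after each name. Filled points have an unadjusted p below 0.05, open points do not, black bars are the medians (-0.94 for peripheral myelin, -0.84 for sterol biosynthesis, 0.67 for cell cycle), and dotted lines mark a fold change of 2.

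The lists of semaphorin, Wnt, potassium channel and collagen genes held members in both directions. The members of these lists called on their brightest probe were lower in AN, whereas Gfra3, Gabrb2 and Slit2 of other lists, given above, were called higher. Sema6c (-1.25) and Sema4g (-1.01), transmembrane semaphorins, were lower in AN, while Sema3c (0.80) and Sema3e (0.64), secreted members of the same guidance family, were higher at p below 0.05. In the family as a whole, 8 of 31 tested semaphorin, plexin and neuropilin genes were higher and 6 lower at this p. Over all gene names 9.98% were higher and 10.2% lower, which applies to the Wnt and collagen counts below as well. Wnt2 was lower by 1.15, and in the Wnt list 13 of 36 were higher and 6 lower. Kcnk1, a potassium leak channel, was lower by 1.31 ± 0.11 (AN 8.76, 7.89 and 7.92, EN 10.17, 8.94 and 9.38). The lowest EN array, replicate 2, was above the highest AN array, replicate 1, by under 0.2 log2 units. Cntf, a survival factor for motor neurons that Schwann cells make, was lower by 0.96 ± 0.10 and just missed a fold change of 2. Of 40 tested collagens, 17 were higher and 5 lower, with the basement membrane chains Col4a4 (0.90) and Col4a6 (0.88) the highest and none called.

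The remaining largest falls were less familiar in nerve. Abca12, a lipid transporter best known in skin, read 5.52, 4.41 and 4.88 in AN and 7.25, 6.82 and 7.11 in EN, a difference of -2.13 ± 0.16. It was well above background on 2 of the 3 AN arrays and on all 3 EN arrays, and the groups did not overlap. H2-DMb1, which loads peptides on class II molecules, was lower by 1.63 ± 0.08, Smco3 by 1.55 ± 0.09, the succinate receptor Sucnr1 by 1.36, the serpin Serpinb6a by 1.33, Epha6 by 1.27, Tmigd1 by 1.25 and the keratins Krt23 and Krt79 by 1.24 and 1.18. Serpinb6a and Epha6 were each called on 1 probe only, and other tested probes of them differed by as little as -0.04 and -0.28. Chrng, the fetal gamma subunit of the muscle acetylcholine receptor, was lower by 2.04 ± 0.28, and the predicted genes Gm4827 and Gm7444 by 2.27 and 1.98. In all, 33 of the 264 called probes had predicted or clone names.

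The labelled tissue was checked against markers of nerve cell bodies and of neighbouring tissue. The Schwann cell gene Pmp22 ranked 46 by mean value, as given above. Of the 21 markers of sensory neuron cell bodies on the array, 19 passed the filter on background and were tested, and all 19 were above background on every EN array. Avil, an actin-binding protein of sensory neurons, read 12.93, 14.27 and 12.62 in AN and 12.37, 12.83 and 13.18 in EN. Only AN replicate 2 stood clear of the EN arrays, and the difference was 0.48 ± 0.40. The list as a whole had a mean of 10.93, 11.77 and 10.54 in AN and 10.65, 10.83 and 10.98 in EN. Of the 19 members, 2 (Ntrk2 and Ntrk3) were higher at p below 0.05, near the 9.98% of all gene names, and none was called. The median of the list by pair was 0.30, 1.12 and -0.54, so that its direction differed between pairs. The 20 genes of the axonal cytoskeleton followed the same arrays, with a median by pair of 0.35, 0.69 and -0.43. Nefh, the heavy neurofilament, ran against this and was lower on every AN array (14.01, 14.70 and 13.82 against 15.14, 15.10 and 15.19).

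Motor neuron markers did not separate the roots at P0. Of 13 tested, none was called. Chat, which makes acetylcholine, differed by -0.03 ± 0.19, Uts2 was lower by 0.87, and Mmp9 and Chodl were higher by 0.98 and 0.83 at p below 0.05. Isl2 differed by 0.29 ± 0.43. The part of neuronal RNA in the other differences was not tested.

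Genes of skeletal muscle varied strongly between arrays. The mean of 14 tested members was 11.94, 10.89 and 10.66 on the AN arrays and 11.71, 13.32 and 11.86 on the EN arrays, and EN replicate 2 stood highest. The median difference was -1.07, and by pair it was -0.01, -2.18 and -1.06. Mylpf and Tnnc2, a myosin light chain and a troponin of fast muscle, were called at -1.12 and -1.02 although their groups overlapped. They were the called members of the list, beside 0.677% of all gene names called lower. Mylpf read 13.51, 12.70 and 12.41 in AN and 13.64, 14.89 and 13.45 in EN. The number of members lower at p below 0.05 was 5 in all pairs, beside 10.2% of all gene names. It was 13 without replicate 1 and 0 without replicate 2 or without replicate 3. Over all tested probes, 6317 had a p below 0.05 in either direction in all pairs. Without replicates 1, 2 and 3 these were 4717, 4884 and 4561. Without replicate 2, 123 of the 203 probes called lower were still called, and 50 of the 61 called higher. Des, desmin of muscle, was called lower by 1.16 with EN replicate 2 at 10.33 beside 9.13 and 9.07, and its other probe differed by -0.26. More muscle genes outside the list were called lower, among them Smpx on 3 of 3 probes (-1.50 to -1.22). Tnnt1, Sh3bgr and Vgll2 were called lower on 2 of 2 probes each. These were picked after their values were seen, and muscle genes outside the list were not counted. The part of muscle tissue in the calls was not tested beyond leaving out a pair.

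Fat markers singled out AN replicate 3. Cfd, the adipsin gene of fat cells, read 8.40, 6.40 and 14.69 in AN and 8.98, 7.22 and 8.73 in EN, and the mean of the 8 fat genes was 8.32, 6.97 and 10.69 against 8.69, 7.65 and 7.51. None was called. Of 14 endothelial genes 7 were higher in AN at p below 0.05, beside 9.98% of all gene names. Among them were Tek (0.86), Cldn5 (0.72) and Kdr (0.67), and 1 endothelial gene was lower, the lipid transporter Mfsd2a (-0.93). Neither meningeal nor spinal cord neuron genes had a member at p below 0.05, of 17 and 18 tested. Of 14 listed genes of the oligodendrocyte lineage 9 were tested. At p below 0.05, 4 were lower and 1 higher (Olig1, 0.67), beside 10.2% and 9.98% of all gene names, and none of the 9 was called. Their mean lay between 10.03 and 10.37 on the 6 arrays, and Bcas1 (-0.35) and Ermn (0.13) were the brightest. Olig2 and Nkx2-2, defining factors of that lineage, were among the 5 without a tested probe.

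**Figure D4:**
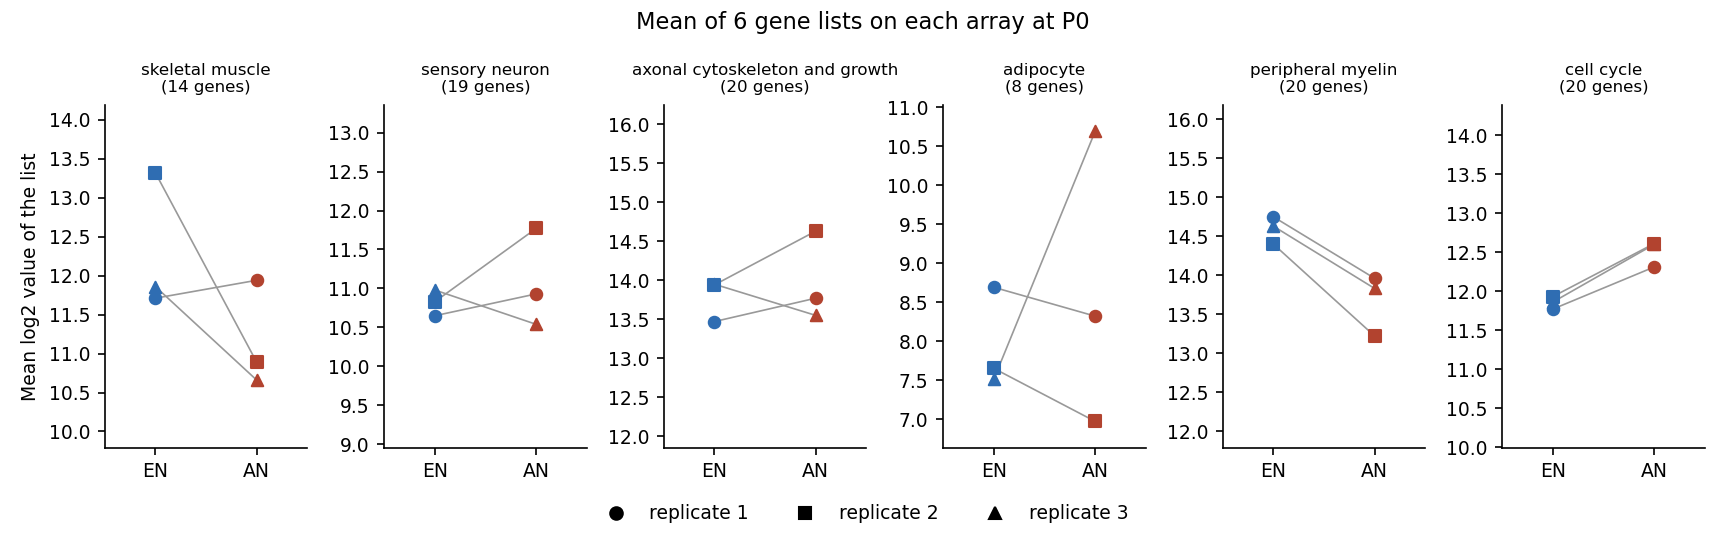
Mean log2 value (vertical axis, same span in each panel) of 6 gene lists on each P0 array, with lines joining the arrays of a replicate number. Skeletal muscle is highest on EN replicate 2 (13.32), fat genes on AN replicate 3 (10.69) and sensory neuron genes on AN replicate 2 (11.77), whereas myelin and cell cycle genes keep 1 direction in all 3 pairs.

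The later stages gave 18 arrays that had no part in the P0 calls. Of the 61 probes higher in AN at P0, 25 (41.0%) were called higher again at 1 W, 23 (37.7%) at 3 W and 24 (39.3%) at 5 W, beside 4.39%, 3.79% and 3.61% of all tested probes. Of the 203 probes lower in AN at P0, 21 (10.3%), 28 (13.8%) and 17 (8.37%) were called lower again, beside 0.498%, 1.16% and 0.952%. Calls in the opposite direction were 0, 2 and 0 among the first and 1, 2 and 7 among the second. In the same direction at all 4 stages were 24 probes of 21 names, 15 of them higher and 9 lower, and 190 probes, 162 of them lower, were called in their P0 direction at no later stage.

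The genes that stayed higher in AN at every stage included Unc13c, Sytl3, Npy, Gfra3, Elovl2, Pcdh10, Arhgef16 and Gm2115, together with Lppr1, Tac2 and a transcript known only by its position. Lppr1 was not above background on any array of either root at 3 W, so its call there rests on unmeasured levels. Those that stayed lower were Pmp2, Chrng, Krt23, Gm4827, Gm7444 and A730049H05Rik, together with Thbs4, Rph3a and Ucp2. Lppr1, Tac2, Thbs4, Rph3a and Ucp2 were named after their values were seen. Unc13c differed by 1.41, 2.08 and 2.28 at 1 W, 3 W and 5 W, beside 2.37 at P0. Pmp2 differed by -1.1, -1.86 and -1.77. Npy went from 1.45 at P0 to 2.88, 4.15 and 4.73, but no EN array had it above background at 3 W and 5 W, where AN was at least 5.18-fold and at least 7.03-fold higher. The bounds were taken as for the P0 probes that no EN array measured. Whether a difference itself changed was tested with the interaction contrast in limma over all 24 arrays, in which the P0 arrays that gave the calls take part, and by that test Npy differed more at 5 W than at P0, by 3.28 with the unmeasured EN values taken as deposited.

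The myelin difference was largest at birth. Read through the same 20 probes, the median went from -0.94 at P0 to -0.155 at 1 W, -0.182 at 3 W and 0.026 at 5 W. The interaction contrast had an adjusted p below 0.05 for 4, 12 and 14 of the 20, each towards a smaller or reversed difference, beside 0.36%, 2.09% and 3.92% of all tested probes that moved in this direction. Drp2 reached -0.04 and Pllp 0.39 at 5 W. Pmp2 was the only member called lower at 1 W, 3 W and 5 W. The sterol genes kept their direction, with medians of -0.462, -0.606 and -0.316 and with 20, 19 and 12 of 21 lower at p below 0.05. Called lower were 0, 2 and 0 of them, beside 0.498%, 1.16% and 0.952% of all tested probes. At any p, 58.0%, 52.2% and 52.7% of all tested probes were lower at these stages. The share of all probes lower at p below 0.05 was not taken for the later stages. The interaction contrast of the sterol genes had an adjusted p below 0.05 for 1, 1 and 9 of the 21, each upwards and so in the same direction as the myelin genes. The cell cycle genes stayed higher in AN at 1 W and 3 W, with medians of 0.477 and 0.485. At p below 0.05, 19 and 12 of the 20 were higher and none was called, while at any p 42.0% and 47.8% of all tested probes were higher. At 5 W the median of the cell cycle genes was 0.170, with 3 higher and 1 lower.

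Other P0 differences ended or turned. Prss56 was still higher in AN at 1 W, where no EN array had it above background and AN was at least 4.01-fold higher. At 3 W and 5 W no array of either root had it above background. Its deposited mean in AN went from 10.3 at P0 to 6.88 at 1 W. Slit2 was lower in AN at the later stages, by 0.43, 0.96 and 0.63, as its mean in EN went from 10.3 at P0 to 13.4 at 5 W and that in AN from 11.6 to 12.8. Apcdd1 turned likewise (-0.31, -0.50 and -0.44), and the endothelial list went from a median of 0.38 at P0 to -0.417, -0.384 and -0.220. The sensory neuron list had medians of 3.55, 1.70 and 0.796 at 1 W, 3 W and 5 W. At p below 0.05, 17, 10 and 4 of its 19 members were higher and 0, 0 and 4 lower. Of these members 13, 9 and 1 were called higher, beside 4.39%, 3.79% and 3.61% of all tested probes. The interaction contrast against P0 had an adjusted p below 0.05 for none of the 19.

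**Figure D5:**
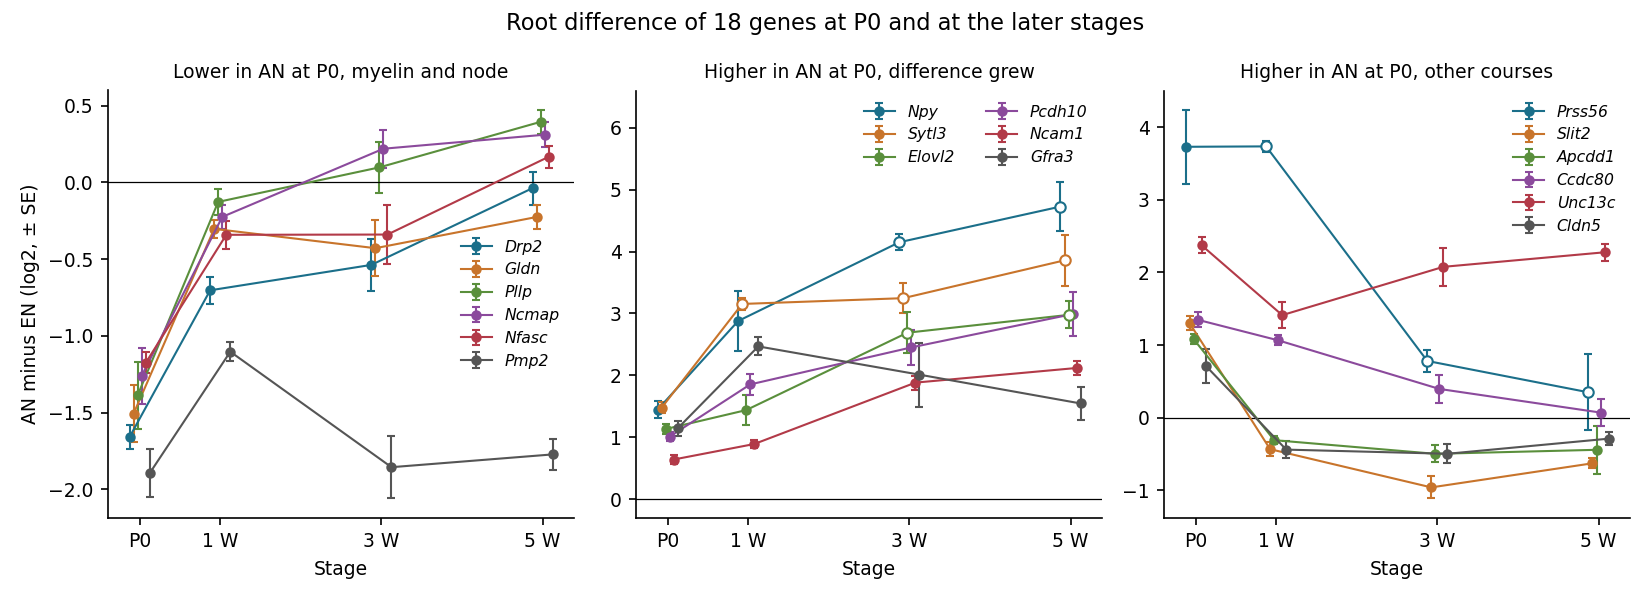
Difference between the roots (AN minus EN, log2, vertical axis, ± SE, n = 3 pairs) of 18 genes at P0 and at 3 later stages (horizontal axis). The myelin and node genes except Pmp2 approach zero after P0 and Npy rises to 4.73. Open points have the dimmer root below background on all 3 arrays, so their height is not a measured difference. Sytl3 and Pcdh10 are drawn through the probe of smallest p, which is not their brightest.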

How the data were processed

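RNA of 3 AN and 3 EN samples at P0 was hybridized to Agilent SurePrint G3 mouse arrays, 1 Cyanine-3 labelled sample per array. The deposited scanner output (Feature Extraction 10.7.1.1) holds an intensity per spot with flags, among them one for signal clearly over background. A table of log2 values for the whole series was deposited too, made by quantile normalization in GeneSpring according to the authors' methods. Each column of that table correlated best with the scanner intensity of its own array (r at least 0.995), and all columns had the same median. Quantile normalization over all 24 arrays assumes like distributions and can compress differences of the brightest probes.

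The log2 values were tested as deposited. Probes were paired with the gene name, the mm9 position and the background mark of the scanner files, and probes well above background on all 3 arrays of AN or of EN were kept. Each fit used limma 3.58.1 in R 4.3.3, lmFit and eBayes, on the 6 P0 arrays with the replicate number as a block (2 residual and 2.29 prior degrees of freedom), and each later stage was fitted alone in the same way. P values were adjusted after Benjamini and Hochberg over all 31105 probes. Same-numbered arrays deviated together from their group means (r = 0.671, 0.477 and 0.493, with different numbers at most 0.0183), so the numbers were taken to pair the samples. Interaction contrasts used all 24 arrays with 12 pairs as a block. An exact permutation test of 3 against 3 arrays cannot go below p = 0.1 and was not used. On simulated data with 31105 probes, 99 of 100 probes changed by 1.5 log2 units and 100 of 100 changed by 3.0 were called in the P0 comparison, 75 and 94 of them at an adjusted p below 0.05. Of 30905 unchanged probes 57 were called, 6 of them at an adjusted p below 0.05.

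The members and the 48 gene lists were chosen with earlier results of these data known, so lists are described by counts and medians without a test. In the lists a gene was read through its tested probe of highest mean. A gene named for a small p or a large difference was read through the probe that gave it, which need not be the brightest. Genes were named by a rule: the 12 rises and 12 falls of smallest p among called probes with a gene symbol and no overlap, the 3 largest rises and falls of any probe, 9 genes that the study measured by RT-qPCR, and the called members of each list or, with none called, its 2 brightest members. List members beyond these are quoted as examples of their list, and some genes that the rule names are not reported here. For probes that no array of the dimmer root had above background, a bound on the fold was taken from the mean of the brighter root and, per array, the higher of the lowest value above background and the probe's own value. Alternatives were the block, the normalization, normexp background correction (offset 50), the filter, 1 probe per gene, an intensity trend in eBayes, a spread over all 24 arrays, and leaving out each replicate. Python 3.11.15 with numpy 2.4.6, pandas 2.3.3 and matplotlib 3.10.9 was used for tables and figures.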

Additional observations from a re-analysis of the deposited data

Results flagged for a closer look

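The AN-EN difference of 33 named genes at a later stage differed from that at P0 by more than 2-fold with an adjusted p below 0.05 in the interaction contrast (limma, 24 arrays). The P0 arrays enter every contrast, and for genes called at P0 they also gave the call. Values are the later difference minus that at P0 in log2 units, at 5 W unless another stage is named.

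In 6 genes that were higher in AN at P0 the difference became smaller or turned. These were Prss56 (-3.38), 9130015A21Rik (-2.47), Slit2 (-1.93), Apcdd1 (-1.53), Ccdc80 (-1.28) and, at 3 W, Cldn5 (-1.21). At 5 W no array of either root had Prss56 or 9130015A21Rik above background.

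In 7 genes that were already higher in AN at P0 it grew further. These were Npy (3.28), Sytl3 (2.38), Pcdh10 (1.98), Elovl2 (1.84), Nlgn1 (1.49), Ncam1 (1.48) and Pcdh20 (1.43). No EN array at 5 W had Npy, Sytl3, Elovl2 or Pcdh20 above background, so the sizes for these 4 rest on EN values that were not measured.

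In 20 genes that were lower in AN at P0 the difference moved upwards. Those of the myelin and node lists were Pllp (1.78), Drp2 (1.62), Ncmap (1.57), Nfasc (1.34), Mbp (1.29), Gldn (1.28) and Fa2h (1.20). The others with a gene symbol were Kcnk1 (1.87), Smco3 (1.65), Serpinb6a (1.50 at 3 W), Sucnr1 (1.28), Epha6 (1.13), Krt79 (1.05) and Insig1 (1.01). Those with a predicted or clone name were Gm32885 (2.54), B230206H07Rik (1.85), B130046B21Rik (1.79), Gm15446 (1.72), Gm5771 (1.58) and E130215H24Rik (1.28). Gm5771 was above background on no array at 5 W.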

How the results depend on the processing

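The number of probes called at P0 was 264, and between 209 and 294 without the replicate block, with slides as the block, with the 24-array spread (with or without block), with either scanner normalization, with probes above background on all 6 arrays, or with an intensity trend in eBayes. Without the replicate block 275 were called, of which 250 were among the 264, and none had an adjusted p below 0.05. With 1 probe per gene name 178 were called. Normexp background correction gave 123 (24 higher, 99 lower), of which 117 were among the 264, and no filter on dim probes gave 433 (151 higher, 282 lower), which moved the share of higher calls from 23.1% to 34.9%. Leaving out a replicate gave 222 to 473, and the 473 came without replicate 1; without replicate 2 the share of higher calls was 33.3%. An adjusted p below 0.05 left 0 in the 6-array fit, but 44 with the 75th percentile, 45 with probes above background on all 6 arrays, 96 with normexp, 174 with the intensity trend, 179 with the 24-array spread and 121 with that spread and no block. The P0 probes called again at 1 W numbered 46 and, with a replicate left out, 46 to 74, the 74 coming without replicate 3. At 3 W they were 51 (47 to 71) and at 5 W 41 (31 to 52). Interaction contrasts past 2-fold at an unadjusted p below 0.05 numbered 1263, 1393 and 1528 at 1 W, 3 W and 5 W, and 684, 773 and 908 among probes above background on all 24 arrays. The skeletal muscle members at p below 0.05 ranged from 0 to 13 when a replicate was left out. For single named genes, 1682 of the values under an alternative were classed as the same and 73 as weaker than in the main fit. A turn of sign in a gene that was not called does not show in these classes. Cfd differed by 1.52 over all pairs but by -0.58 and -0.82 in pairs 1 and 2. The median of the fat genes was 0.878, and -0.653 without replicate 3. With 3 pairs and 2 residual degrees of freedom, the spread of a single probe is poorly known, and signal near background limits the dim genes; causes of these shifts were not tested.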

Other observations

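Some genes of the sex chromosomes differed between replicates in a like way in both roots. The Y-linked Eif2s3y read 10.51, 10.01 and 9.11 on the AN arrays of replicates 1, 2 and 3 and 10.83, 9.94 and 8.94 on the EN arrays. Uty read 8.84, 8.20 and 7.82 against 8.86, 8.38 and 7.28. Xist, the RNA of the inactive X chromosome, was highest in replicate 3 of both roots (8.07 and 8.19, beside 7.16 to 7.54 on the other arrays). The roots of a pair differed less in Eif2s3y (-0.32, 0.07 and 0.17) than the replicates did. Ddx3y, also Y-linked, did not follow this order, with 6.39, 7.5 and 6.98 in AN and 6.94, 6.99 and 6.45 in EN, and 1 of the 2 Kdm5d probes was highest in replicate 2 in AN (6.99, 7.3 and 6.05) and in replicate 1 in EN (7.23, 7.13 and 5.75).

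Several genes that the root comparison called at P0 were read by probes that disagreed. Of 90 gene names with at least 2 tested probes and a call, all probes were called for 30, the probes differed in sign for 13 and by more than 1 log2 unit for 24. Mme, a neutral endopeptidase, had 4 probes between -1.86 and 0.12, 3 of them called, and Nrp1, a semaphorin receptor, had 6 between 0.01 and 1.29, 1 of them called. Both were chosen after their values were seen.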
